A study of Saccharomyces cerevisiae with 59 samples.

Results

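The glucan and chitin synthesis genes described here were FKS1 (YLR342W), GSC2 (YGR032W), RHO1 (YPR165W), CHS3 (YBR023C), CHS1 (YNL192W), CHS2 (YBR038W) and GFA1 (YKL104C). They were chosen by name as 7 of the 6420 genes counted in every library, with earlier results of these data known. The RNA came from spheroplasts, which are cells stripped of their wall, of Saccharomyces cerevisiae S288C grown from 1 clone, digested with zymolyase and then starved of amino acids. During starvation the spheroplasts stood in S medium with sorbitol and without amino acids for at least 30 min and up to 5 h by the labels, whereas the study's methods give a shorter upper limit. Bulk RNA was diluted to 6 inputs, with 10 libraries each at 5, 10 and 20 pg, 7 at 100 pg, 8 at 1 ng and 9 at 10 ng, and libraries were made as for single cells. A further 5 libraries, numbered 11, 12, 14, 15 and 16 under the name H6P, share the strain and the starvation, but their labels give no input. A separate input for each of them is listed by the study and was not used here, so their values and medians are descriptions and not those of replicates. All libraries share the digestion and the starvation, so no sample shows these genes in intact or fed cells. Fewer cells with a transcript and less of it per cell cannot be told apart in such bulk RNA.

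The yeast wall is a mesh of beta-1,3-glucan to which beta-1,6-glucan, chitin and mannoproteins are linked. Fks1 and Gsc2 (also called Fks2) are alternative catalytic subunits of the beta-1,3-glucan synthase, and the small GTPase Rho1 switches that enzyme on. Chs3 makes most of the chitin of the bud-neck ring and the lateral wall, Chs2 builds the primary septum during division, and Chs1 repairs the wall as daughter cells separate. Gfa1 catalyses the first committed step toward UDP-N-acetylglucosamine, the sugar donor of the chitin synthases. Zymolyase digests beta-1,3-glucan, and spheroplasts held in an osmotically supported medium can rebuild a wall.

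In the R64 reference, each of the 7 genes was coded in 1 part without an intron. FKS1 lies at chrXII:809997-815627 on the plus strand with a coding length of 5631 nt, and GSC2 at chrVII:548264-553951 on the plus strand with 5688 nt. RHO1 lies at chrXVI:875368-875997 on the plus strand with 630 nt. CHS3 lies at chrII:284428-287925 on the minus strand with 3498 nt. CHS1 lies at chrXIV:276502-279897 on the plus strand with 3396 nt, and CHS2 at chrII:311898-314789 on the plus strand with 2892 nt. GFA1 lies at chrXI:243220-245373 on the minus strand with 2154 nt. FKS1 and GSC2 were longer than 99.2% of the 5980 genes with a coding length, whereas RHO1 was longer than 21.9% of them (median 1200.0 nt). In this annotation GFA1 is overlapped by YKL104W-A, which is not a row of the files, and reads of such a pair cannot be separated because the kit does not mark the strand.

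FKS1 and GSC2 are close copies, so their sequences were compared to see whether counts of unique reads can tell them apart. Over 5607 aligned coding bases 80.8% were identical. The longest run they share is 38 bases, and it is shown in capitals with 5 bases on either side in lower case (R64, chrXII:812386-812433 and chrVII:550710-550757, plus strand).
FKS1: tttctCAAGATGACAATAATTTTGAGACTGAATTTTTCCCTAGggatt
GSC2: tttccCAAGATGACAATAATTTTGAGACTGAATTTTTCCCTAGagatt
None of the 5532 windows of 100 bases was identical in the pair (0.00%). Shorter reads that lie within the shared run cannot be assigned to either gene. Identical runs between the chitin synthases were shorter, from 11 to 15 bases.

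The cDNA was primed with oligo-dT, which can also anneal to runs of A inside a transcript, so the longest such runs were looked up on the coding strand. CHS1 and GFA1 were the members with a run of at least 8 A, which 14.4% of the 5980 genes and 27.3% of the 1322 genes of at least 2000 nt also held. CHS1 held 3 such runs and GFA1 held 1. The longest in the other members was 5 or 6 A. The windows of 30 bases around the longest run are shown with the run in capitals (R64, chrXIV:277924-277953 on the plus strand and chrXI:244733-244762 on the minus strand).
CHS1: tatatggtgAAAAAAAAAAAttcaagcact
GFA1: tgtcaaatctgAAAAAAAActaaaagtcga
The runs end 1954 and 1524 bases before the end of the coding sequence. Their part in the counts was not tested.

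Levels are CPM, the counts of a gene scaled to the same gene total in each library. Gene totals ranged from 290434 to 2452562 counts in the 54 libraries with an input and from 6407797 to 14337575 in the H6P libraries. A gene is called detected with at least 5 counts. The mean coding length of the genes, weighted by counts, was 1477 ± 65.8 nt at 5 pg (SD, n = 10), 1446 ± 112 at 10 pg (n = 10), 1389 ± 74.9 at 20 pg (n = 10), 1318 ± 139 at 100 pg (n = 7), 1222 ± 107 at 1 ng (n = 8) and 1057 ± 55.3 at 10 ng (n = 9). S288C is of mating type alpha, and 208001 counts fell on 4 genes of alpha cells against 564 on 7 genes of a cells, 1 of which was at 0. In the H6P libraries those counts were 54742 and 5321, or 486 to 1171 CPM of the alpha genes and 49.5 to 173 CPM of the a genes. The sum of 15 sporulation genes (2 of them at 0 in all 54 libraries) ranged from 0 to 923 CPM in those libraries and from 236 to 583 CPM in the H6P libraries.

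**Figure D1:**
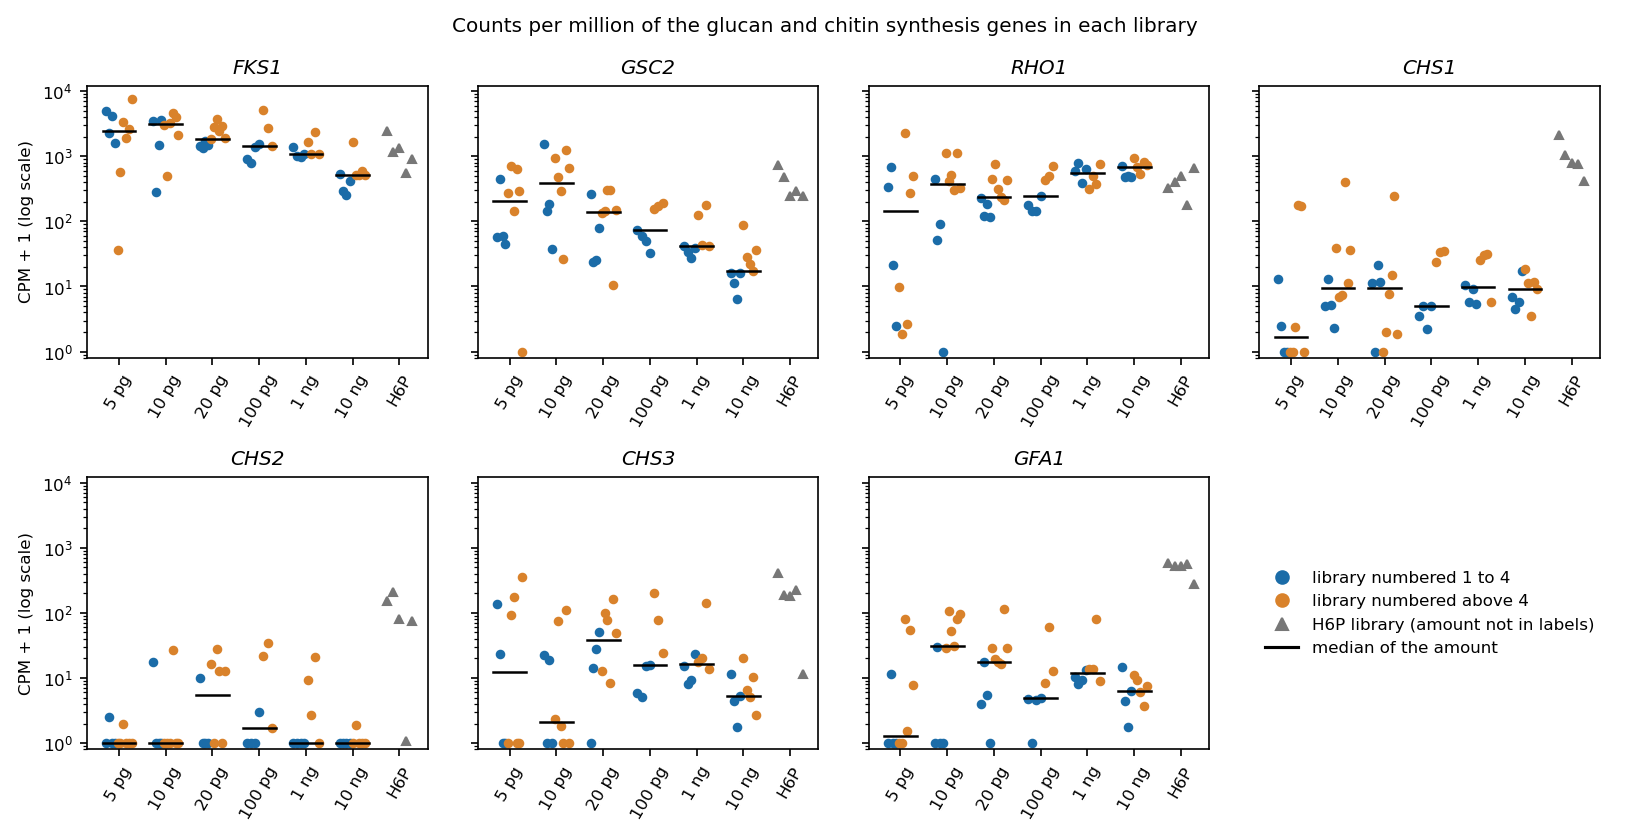
Each point is the CPM + 1 of 1 library on a log scale, by input amount, with the libraries numbered 1 to 4 in blue, those above 4 in orange, H6P libraries as grey triangles and the median of each amount as a bar. FKS1 was detected in every library, CHS2 was at 0 in most libraries, and CHS1 and GFA1 in the 5 H6P libraries lay above every library with an input.

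FKS1, the main catalytic subunit of glucan synthase in growing cells, was detected in 54 of 54 libraries and its median was higher at each smaller input than at 10 ng. At 10 ng it ranged from 255 to 1674 CPM with a median of 517 (n = 9). At 1 ng it ranged from 991 to 2358 CPM with a median of 1083 (n = 8), and at 100 pg from 783 to 5084 CPM with a median of 1414 (n = 7). The 1 ng libraries lay above the 10 ng median in 8 of 8 cases, and 1 of them lay above all 10 ng libraries. At 20 pg FKS1 ranged from 1323 to 3749 CPM with a median of 1858 (n = 10), and at 10 pg from 285 to 4627 CPM with a median of 3151 (n = 10). The widest spread was at 5 pg, from 35.5 CPM in replicate 5 to 7520.5 CPM in replicate 10 with a median of 2433 (n = 10). Of those 10 libraries, 7 lay above all 9 of the 10 ng libraries and 1 lay below all of them.

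Fold changes are given on the log2 scale as lower over higher input, after subtraction of the median of the tested genes, which was 1.64 for 5 pg against 10 ng and 0.23 for 1 ng against 10 ng. The adjusted p of edgeR's quasi-likelihood test (Benjamini-Hochberg over all genes tested) and the SE refer to the value before that median was subtracted. Between 5 pg and 10 ng, 3 of the 6 members tested passed 0.05 (FKS1, GSC2 and CHS3), all higher at 5 pg, while 30.6% of the 3492 genes tested passed and 23% were higher. FKS1 rose by 2.12 at 5 pg against 10 ng (SE 0.79, edgeR adjusted p = 0.00351). Within the libraries numbered 1 to 4 the value was 4.39 (edgeR adjusted p = 0.0752) and within those numbered above 4 it was 1.39 (edgeR adjusted p = 0.114), so neither set alone passed. FKS1 was also higher by 0.77 at 1 ng against 10 ng (SE 0.20, edgeR adjusted p = 0.00155). This difference was 1.47 in the libraries numbered 1 to 4 (edgeR adjusted p = 1.17e-06) and 0.25 in those above 4 (edgeR adjusted p = 0.193). Whether the sets differ was not tested.

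The direction of most calls over all genes depended on the setting for 5 pg against 10 ng. For 1 ng against 10 ng more genes were higher under each scaling. For 5 pg against 10 ng, 804 genes were higher and 266 lower with TMM, against 182 and 323 with library size only, 321 and 176 with ERCC scaling and 594 and 748 by DESeq2, whose median was -0.41. A fit with the library number as a block gave 19 higher and 543 lower. The libraries numbered above 4 gave 37 and 596, and those numbered 1 to 4 gave 0 and 0. For 1 ng against 10 ng, 816 were higher and 625 lower with TMM, against 1025 and 499 with DESeq2 size factors, 940 and 426 with library size only and 861 and 187 with ERCC scaling. The relative fold changes of FKS1, GSC2 and CHS3 were positive under each of these scalings in both comparisons. A shift common to all genes is removed with the median of each fit, so these signs are no check on the scaling.

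GSC2, the other catalytic subunit, was detected in 52 of 54 libraries, at lower levels than FKS1. It ranged from 5.49 to 85.7 CPM with a median of 16.2 at 10 ng (n = 9). It ranged from 26.7 to 178 CPM with a median of 40.6 at 1 ng (n = 8), and from 31.8 to 194 CPM with a median of 73.9 at 100 pg (n = 7). All 8 of the 1 ng libraries lay above the 10 ng median, and 2 lay above all of the 10 ng libraries. The range was 9.68 to 307 CPM with a median of 139 at 20 pg (n = 10), 25.0 to 1517 CPM with a median of 392 at 10 pg (n = 10) and 0 to 706 CPM with a median of 204 at 5 pg (n = 10). The 5 pg library without a count of GSC2 was replicate 10, which was also the library with the most FKS1. GSC2 was higher by 3.26 at 5 pg against 10 ng (SE 1.22, edgeR adjusted p = 0.00855; 0.0626 with library size only), and 6 of the 10 libraries at 5 pg lay above all 10 ng libraries. The value within the libraries numbered 1 to 4 was 4.26 (edgeR adjusted p = 0.127) and within those above 4 it was 3.50 (edgeR adjusted p = 0.0835). GSC2 was higher by 0.83 at 1 ng against 10 ng (SE 0.35, edgeR adjusted p = 0.0220; 0.0655 with ERCC scaling), with 1.49 in the libraries numbered 1 to 4 (edgeR adjusted p = 0.00199) and 0.50 in those above 4 (edgeR adjusted p = 0.182).

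The ratio of GSC2 to FKS1 compares both glucan synthase subunits within a library and per kb of coding length. Its median was 0.0358 at 10 ng (0.0213 to 0.0660), 0.0361 at 1 ng, 0.0626 at 100 pg and 0.0616 at 20 pg. It was 0.307 at 10 pg (0.00536 to 0.959) and 0.0750 at 5 pg (0 to 7.46). FKS1 exceeded GSC2 in every library except 5 pg replicates 5 and 6. Replicate 5 had 35.5 CPM of FKS1 and 267 CPM of GSC2, and replicate 6 had 565 CPM of FKS1 and 706 CPM of GSC2. The ratio in the 5 H6P libraries ranged from 0.180 to 0.509.

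RHO1, the GTPase that activates the synthase, is the shortest of the members and was the most even at high input. It ranged from 474 to 949 CPM with a median of 674 at 10 ng (n = 9) and from 319 to 778 CPM with a median of 543 at 1 ng (n = 8). At 100 pg it ranged from 143 to 713 CPM with a median of 248 (n = 7), and at 20 pg from 115 to 772 CPM with a median of 232 (n = 10). It was thus found in every library of these 4 amounts. At 10 pg RHO1 ranged from 0 to 1139.9 CPM with a median of 371 (n = 10), and at 5 pg from 0.859 to 2303 CPM with a median of 145 (n = 10). At 5 pg, 7 of 10 libraries lay below all 10 ng libraries and 1 lay above all of them. Replicates 4, 6 and 8 at 5 pg held only 2 or 3 counts of RHO1, and 10 pg replicate 4 held none, which allows up to 3 counts.

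RHO1 passed no edgeR test with all libraries. The fold change was -1.15 at 5 pg against 10 ng (SE 1.05, edgeR adjusted p = 0.724) and -0.61 at 1 ng against 10 ng (SE 0.24, edgeR adjusted p = 0.215). The mean of log2(CPM + 1), which gives libraries near 0 more weight, was lower at 5 pg by 3.57 (difference -3.57, two-sided exact permutation p = 0.0192, unadjusted over the 7 members tested). In the same test FKS1 differed by 1.72 (exact permutation p = 0.0386) and GSC2 by 2.47 (exact permutation p = 0.0238). For 100 pg against 1 ng the fold change of RHO1 was -0.98 (SE 0.34, edgeR adjusted p = 0.138). It was -1.11 in the libraries numbered 1 to 4, where it passed (edgeR adjusted p = 0.00749), and -0.59 in those above 4 (edgeR adjusted p = 0.954).

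Set beside each other per kb, the activator and the catalytic subunit differed in order between the inputs. The median ratio of RHO1 to FKS1 was 11.8 at 10 ng (5.07 to 17.1, RHO1 higher in 9 of 9 libraries) and 3.97 at 1 ng (higher in 8 of 8). It was 1.66 at 100 pg (higher in 5 of 7), 0.902 at 20 pg (4 of 10), 1.40 at 10 pg (7 of 10) and 0.602 at 5 pg (3 of 10). At 5 pg the ratio ranged from 0.00791 to 6.11. Before division by length the 10 ng medians were 674 CPM for RHO1 and 517 CPM for FKS1. The study reports lower read coverage toward the 5' end, whereas a value per kb treats coverage as even. This limits any order per kb of genes of unlike length, here and below. For 5 pg against 10 ng the length trend over all genes was 2.98 at FKS1 and -1.29 at RHO1. The part of length in the ratio was not tested.

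CHS3, the synthase for most wall chitin, was detected in 35 of 54 libraries, and its median was lowest at 10 pg. It ranged from 0.784 to 19.0 CPM with a median of 4.33 at 10 ng (n = 9), where a library held 1 to 30 counts. It ranged from 7.09 to 139 CPM with a median of 15.3 at 1 ng (n = 8), from 4.04 to 201 CPM with a median of 14.9 at 100 pg (n = 7) and from 0 to 163 CPM with a median of 37.8 at 20 pg (n = 10). All 8 of the 1 ng libraries lay above the 10 ng median. At 10 pg CHS3 had no count in 4 of 10 libraries and reached 109 CPM, with a median of 1.08. At 5 pg the median was 11.2 CPM (n = 10). CHS3 had no count in 5 libraries at 5 pg, while the other 5 held 22.4, 91.0, 134, 174 and 358 CPM, above every 10 ng library. A count of 0 allowed up to 1.66 to 2.37 CPM in those 5 libraries, and 10 ng replicates 3 and 10 (0.784 and 1.66 CPM) lay under that.

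The fold change of CHS3 at 5 pg against 10 ng was 2.76 (SE 1.55, edgeR adjusted p = 0.0340). It did not pass with library size only (edgeR adjusted p = 0.106), with ERCC scaling (0.0684) or without a filter (0.0577). The call was lost without any 1 of 9 libraries (10 ng replicates 1, 2, 3, 4, 6, 7, 9 and 10, and 5 pg replicate 10, edgeR adjusted p up to 0.0901), and the mean of log2(CPM + 1) differed by 0.84 (exact permutation p = 0.521). CHS3 was higher by 1.54 at 1 ng against 10 ng (SE 0.50, edgeR adjusted p = 0.0104), with 1.41 in the libraries numbered 1 to 4 (edgeR adjusted p = 0.0565) and 1.48 in those above 4 (edgeR adjusted p = 0.0855). Without 1 ng replicate 9, the library with 139 CPM, it was 0.98.

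CHS1, the repair chitin synthase, was detected in 31 of 54 libraries, and its medians lay at or under 8.79 CPM at every input. It ranged from 2.51 to 17.8 CPM with a median of 8.30 at 10 ng (n = 9), from 4.48 to 30.8 CPM with a median of 8.79 at 1 ng (n = 8) and from 1.21 to 34.7 CPM with a median of 4.04 at 100 pg (n = 7). At lower input single libraries stood far above the rest. They were 20 pg replicate 9 with 248 CPM (median 8.56, n = 10), 10 pg replicate 8 with 404 CPM (median 8.43, n = 10), and 5 pg replicates 8 and 9 with 180 and 173 CPM (median 0.702, n = 10). The fold change of CHS1 at 5 pg against 10 ng was 1.36 (SE 1.45, edgeR adjusted p = 0.105), and no comparison of CHS1 passed.

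CHS2, the septum chitin synthase, was nearly absent from the libraries with an input, with 336 counts over all 54 and detection in 11. A single count was found among the 9 libraries at 10 ng (0.928 CPM in replicate 6) and 3 counts among the 10 at 5 pg. A count of 0 allows up to 3 counts, or 1.90 to 10.3 CPM in a 10 ng library. At 20 pg 5 of 10 libraries held it, at 8.99 to 26.5 CPM. At 100 pg replicates 5 and 7 held 20.5 and 33.5 CPM, and at 1 ng replicates 5 and 9 held 8.26 and 20.2 CPM. CHS2 fell below the filter in the comparisons of 5 pg or 1 ng with 10 ng and of 5 pg with 10 pg and was not tested there.

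GFA1, the entry enzyme of the chitin precursor pathway, was detected in 34 of 54 libraries. It ranged from 0.784 to 13.96 CPM with a median of 5.41 at 10 ng (n = 9), from 7.09 to 80.8 CPM with a median of 10.8 at 1 ng (n = 8) and from 0 to 59.4 CPM with a median of 3.97 at 100 pg (n = 7). It ranged from 0 to 114 CPM with a median of 16.7 at 20 pg (n = 10), from 0 to 105 CPM with a median of 29.6 at 10 pg (n = 10) and from 0 to 80.0 CPM with a median of 0.277 at 5 pg (n = 10). The 1 ng and 10 ng ranges overlapped, although all 8 of the 1 ng libraries lay above the 10 ng median. GFA1 was higher by 0.96 at 1 ng against 10 ng (SE 0.47, edgeR adjusted p = 0.0498). The call was lost without any 1 of 6 libraries (10 ng replicates 3, 6, 7, 9 and 10, and 1 ng replicate 9, edgeR adjusted p up to 0.187, with 0.53 without 1 ng replicate 9) and by DESeq2 (0.34, adjusted p = 0.164) or without a filter (edgeR adjusted p = 0.0791). At 5 pg against 10 ng the fold change was 0.79 (SE 1.26, edgeR adjusted p = 0.127).

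**Figure D2:**
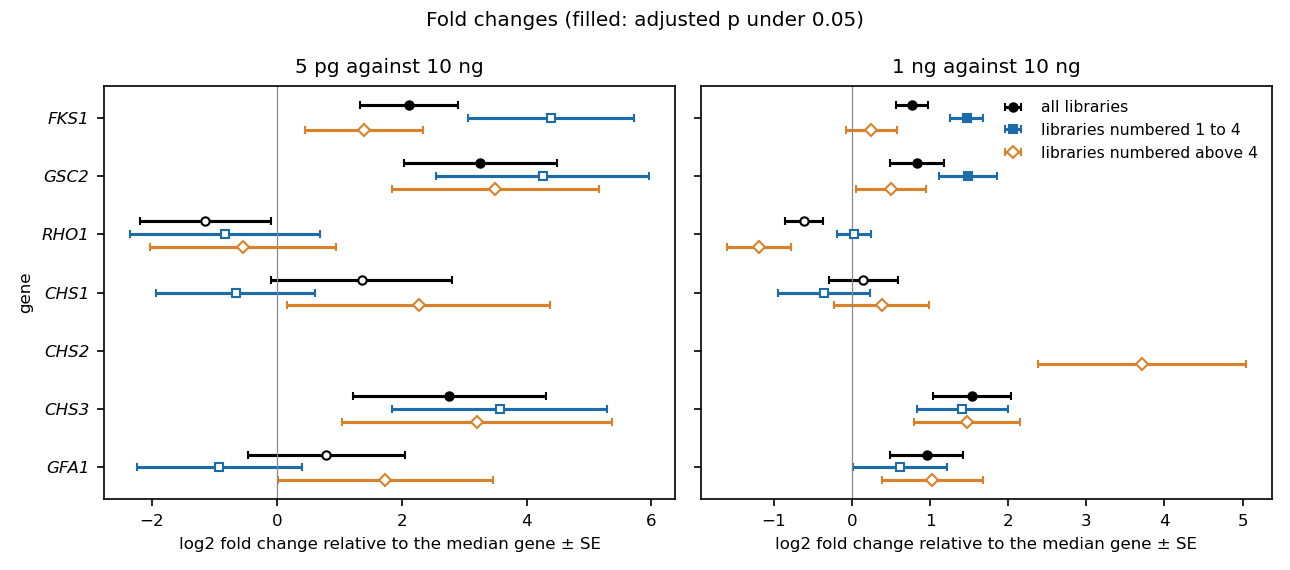
Log2 fold changes of the lower over the higher input relative to the median gene, with SE bars, for 5 pg and for 1 ng against 10 ng, in all libraries (black), libraries numbered 1 to 4 (blue) and above 4 (orange), filled where the edgeR adjusted p was under 0.05. With all libraries FKS1, GSC2 and CHS3 were filled on the left and those and GFA1 on the right, while within the sets only FKS1 and GSC2 of the libraries numbered 1 to 4 were filled, on the right.

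Between 1 ng and 10 ng, 4 of the 6 members tested passed (FKS1, GSC2, CHS3 and GFA1), all higher at 1 ng, while 36.7% of the 3927 genes tested passed and 20.8% were higher. RHO1 and CHS1, with 0.15 for CHS1 (SE 0.44, edgeR adjusted p = 0.505), did not pass. No member passed for 100 pg against 1 ng, where 6.87% of 4670 genes did, 3.45% higher and 3.43% lower at 100 pg. No member passed for 20 pg against 100 pg by edgeR (0 of 4546 genes, 177 at an unadjusted p under 0.05, 3 genes by DESeq2), for 10 pg against 20 pg (2 of 4388, 0.0456%) or for 5 pg against 10 pg (0 of 3443, 539 at an unadjusted p under 0.05, 116 by DESeq2). GSC2 was 1.70 higher on the log2 scale at 10 pg than at 20 pg (SE 0.71, edgeR adjusted p = 0.476). The libraries of 5 pg and 10 ng overlapped in CPM for all members, and 5.27% of genes had no overlap, against 3.44% for 1 ng and 10 ng. In the test over all 6 amounts FKS1 (edgeR adjusted p = 0.00148), GSC2 (edgeR adjusted p = 0.000480) and CHS2 (edgeR adjusted p = 0.0468) passed, which is 3 of 7 members against 36.7% of 4182 genes. CHS2 was detected in 11 of the 54 libraries, 5 of them at 20 pg and 0 at 5 pg or 10 ng. It passed the filter only through the amounts where it was higher, so its call is a description. The adjusted p was 0.121 for RHO1, 0.207 for CHS3, 0.765 for CHS1 and 0.823 for GFA1 by the same edgeR test.

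At 5 pg fewer members were detected in a library (median 3.5 of the 7) than at 20 pg (6) or 10 ng (5), with 2 to 5, 5 to 7 and 2 to 6 members per library. Over all genes a library detected 814 to 3244 at 5 pg, 2151 to 3604 at 20 pg and 1692 to 4132 at 10 ng. RHO1 was detected in 7 of 10 libraries at 5 pg and in 9 of 9 at 10 ng, CHS1 in 3 of 10 and 7 of 9, and GFA1 in 4 of 10 and 5 of 9. FKS1 was detected in all of both groups. After thinning each library to 290434 counts the order turned for CHS1 (2 of 10 at 5 pg and 1 of 9 at 10 ng) and GFA1 (3 of 10 and 0 of 9), while RHO1 was in 6 of 10 and 9 of 9. GSC2 was then in 9 of 10 and 4 of 9 and CHS3 in 5 of 10 and 2 of 9. For the unthinned counts 0 of the 6 members tested passed Fisher's exact test after adjustment over 3492 genes, of which 30.3% passed. An unadjusted p under 0.05 was found for 0 of 6 members and for 1519 of the 3492 genes. FKS1 made up a median of 73.4% of the summed CPM of the 7 genes at 5 pg, 64.6% at 10 pg, 80.1% at 20 pg, 78.7% at 100 pg, 65.8% at 1 ng and 41.5% at 10 ng.

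The fold changes were set beside coding length, since they differed by coding length over all genes. Over 3492 genes at 5 pg against 10 ng, the median relative fold change was -1.26 for the 1438 genes under 1000 nt and 2.38 for the 688 genes of at least 2000 nt. FKS1 at 2.12 lay below the trend at its length by 0.86 (trend 2.98, difference -0.86), whereas GSC2 at 3.26 lay 0.27 above it. CHS3 lay 0.24 above the trend and RHO1, the short member, 0.15 above it. CHS1 differed from the trend by -1.13 and GFA1 by -0.80. These differences are smaller than the SE of each gene except for FKS1 (SE 0.79).

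**Figure D3:**
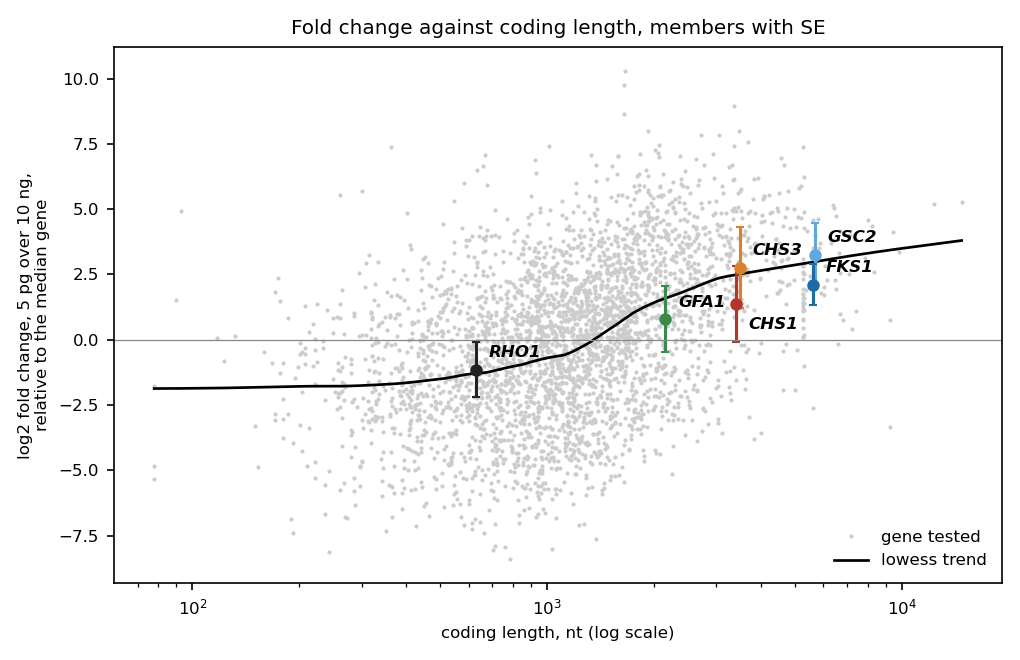
Relative log2 fold change of 5 pg over 10 ng against coding length in nt (log scale) for the genes tested (grey), with their lowess trend (line) and the 6 members tested (coloured, with SE bars). RHO1 at 630 nt sits at -1.15 and GSC2 at 5688 nt at 3.26, both within 0.3 of the line.

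Compared per kb of coding length, the order of the medians at 10 ng was RHO1 (1071 CPM per kb), FKS1 (91.8), GSC2 (2.85), GFA1 (2.51), CHS1 (2.45), CHS3 (1.24) and CHS2 (0). RHO1 exceeded FKS1 and FKS1 exceeded GSC2 in 9 of 9 libraries. GSC2 exceeded GFA1 in 8 of 9, GFA1 exceeded CHS1 in 5 of 9 and CHS1 exceeded CHS3 in 6 of 9, with overlapping ranges. At 5 pg FKS1 (432 CPM per kb) stood above RHO1 (230 in the median) in 7 of 10 libraries, and RHO1 stood above GSC2 (35.9) in 6 of 10.

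**Figure D4:**
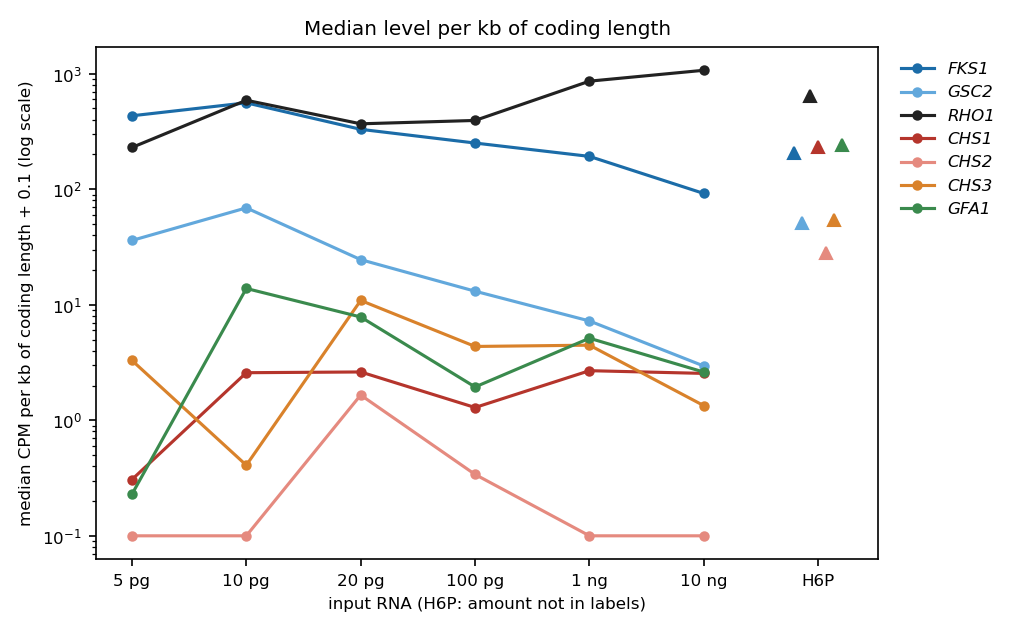
Median CPM per kb of coding length, plus 0.1, on a log scale for the 7 genes at the 6 inputs (circles, lines) and in the H6P libraries (triangles). FKS1 and GSC2 have lower medians at 10 ng than at 5 pg, RHO1 has its highest at 10 ng, and GFA1 and CHS1 stand beside FKS1 in the H6P libraries.

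In most H6P libraries CHS1, CHS2 and GFA1 lay above every library with an input, whereas CHS3 did so in 1. CHS1 had 2121, 1055, 789, 765 and 417 CPM in the libraries numbered 11, 12, 14, 15 and 16. GFA1 had 592, 519, 522, 571 and 274 CPM in the same libraries. Both lay above every one of the 54 libraries with an input in 5 of 5 cases, which held for 3.05% of the 4622 genes looked at. The highest values with an input were 404 CPM for CHS1 and 114 CPM for GFA1. CHS2 had 152, 208, 80.9, 0.0712 and 74.2 CPM and lay above all 54 libraries in 4 of 5 cases, which at least 4 of 5 libraries did for 6.1% of genes. With detection in 11 of the 54 libraries, CHS2 was among the 4622 genes only through the H6P libraries, so this is a description. Library 15 held 1 count of CHS2 although its total is among the largest. CHS3 had 414, 190, 178, 220 and 10.5 CPM, so that 4 of 5 lay above all 10 ng libraries and 1 lay above all 54. The share of genes with these counts was not computed, while 43.6% of the 4622 lay above all 10 ng libraries in 5 of 5.

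The glucan synthase genes in the H6P libraries stayed within the range of the other libraries. FKS1 had 2446, 1154, 1338, 558 and 908 CPM. GSC2 had 731, 488, 243, 287 and 247 CPM, above all 10 ng libraries in 5 of 5 cases, which held for 43.6% of genes. RHO1 had 329, 405, 494, 174 and 650.4 CPM, below the highest 10 ng library in each. The values of 329, 405 and 174 CPM also lay below the lowest 10 ng library (474 CPM). Per kb the H6P order of the medians was RHO1 (643), GFA1 (242), CHS1 (232), FKS1 (205), CHS3 (54.4), GSC2 (50.5) and CHS2 (27.98). The mean coding length weighted by counts was 1595 to 2128 nt in the H6P libraries, against 1017 to 1603 nt in the libraries with an input. These libraries named H6P were sequenced more deeply, held between 0.00393% and 7.72% of spike-in counts against 33.1% to 72.3% in the others, and detected 4504 to 5872 genes against 814 to 4714. They also held more counts of a-cell and sporulation genes, as given above. The part of these differences, and of the input, in the levels was not tested.

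The regulators and helpers around these enzymes were followed in 5 lists with 41 genes, all of them in the files. For 5 pg against 10 ng 7 of the 25 tested passed, 6 higher and 1 lower, with a median of 0.12, beside 30.6% of all genes tested. For 1 ng against 10 ng 11 of the 30 tested passed, 8 higher and 3 lower, with a median of 0.32, beside 36.7% of all genes. Both shares are near that background, so the calls below describe single genes. Among the glucan synthase regulators ROM1, an exchange factor of Rho1, was higher at 5 pg by 8.0 (SE 2.17, edgeR adjusted p = 0.00521), but its median was 2.73 CPM at 5 pg and 1 library reached 3708 CPM. ROM1 passed the filter only through the 5 pg libraries (detected in 5 of 10, and in 2 of 9 at 10 ng), so its call is a description. SMI1, which regulates glucan synthesis, had a median of 7.62 CPM at 1 ng (detected in 5 of 8) and was detected in 0 of 9 libraries at 10 ng. It entered the test only through the 1 ng libraries, so its call (edgeR adjusted p = 0.000692) is a description. The most abundant regulators at 10 ng were RDI1, which holds Rho1 inactive, with a median of 73.1 CPM and BEM2, which turns Rho1 off, with 13.0 CPM.

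Of the beta-1,6-glucan genes, KRE6 was higher at 1 ng than at 10 ng by 0.95 (SE 0.28, edgeR adjusted p = 0.00402). KRE5 was detected in 5 of 8 libraries at 1 ng and in 1 of 9 at 10 ng. It passed the filter only through the 1 ng libraries, so its value of 2.41 (SE 0.64, edgeR adjusted p = 0.00432) is a description. At 5 pg against 10 ng the fitted values of KRE1, KRE5 and KRE6 were 2.25, 5.47 and 4.91 (edgeR adjusted p from 0.00968 to 0.0407), but the medians did not follow them. The KRE1 median was 51.6 CPM at 5 pg and 116 at 10 ng, with up to 2366 CPM in a 5 pg library. The KRE5 median was 0.215 and 1.66 CPM, with 3 of 10 libraries detected and up to 1553 CPM, and the KRE6 median was 44.0 and 42.7 CPM, with up to 3599 CPM. Without the 5 pg libraries KRE5 did not reach the filter (detected in 1 of 9 at 10 ng), so its call there is a description. KRE9 and ROT1, whose medians at 10 ng were 312 and 177 CPM, differed by -0.83 and -0.92 at 1 ng against 10 ng (edgeR adjusted p = 0.0105 and 0.0148), and CWH41 by 0.62 (edgeR adjusted p = 0.00516). KEG1 was detected in 0 of 10 libraries at 5 pg and in 8 of 9 at 10 ng (median 8.10 CPM). It entered the test only through the 10 ng libraries, so its call (edgeR adjusted p = 0.00449) is a description.

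Among the chitin synthase helpers, the exomer genes BCH1, BUD7 and BCH2, whose proteins carry Chs3 to the cell surface, and SKT5, the activator of Chs3, were higher at 1 ng than at 10 ng. They differed by 0.89 for BCH1 (edgeR adjusted p = 0.00129), 1.23 for BUD7 (edgeR adjusted p = 0.0124), 2.13 for BCH2 (edgeR adjusted p = 0.0413, detected in 4 of 8 and 1 of 9 libraries) and 0.70 for SKT5 (edgeR adjusted p = 0.0294). BCH2 passed the filter only through the 1 ng libraries, so its call is a description. CHS7, which helps Chs3 leave the endoplasmic reticulum, differed by -1.02 (edgeR adjusted p = 0.0158), with a median of 114 CPM at 1 ng and 193 CPM at 10 ng. CHS5, the exomer scaffold, had a median of 149 CPM at 10 ng and did not pass. The fitted value of CYK3, a cytokinesis gene, was 4.06 at 5 pg against 10 ng (edgeR adjusted p = 0.0270), although its median was 0.234 CPM at 5 pg and 2.78 at 10 ng and 1 library at 5 pg reached 615 CPM. CYK3 did not reach the filter without the 5 pg libraries (detected in 3 of 10, and in 2 of 9 at 10 ng), so its call is a description. RCR1 was higher at 100 pg than at 1 ng by 2.21 (edgeR adjusted p = 0.0214), where 6.87% of genes passed.

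The genes for sugar donors were the most abundant of the lists. PGM2, a phosphoglucomutase, had a median of 3093 CPM at 10 ng (2107 to 5549.7, n = 9), and UGP1, which makes UDP-glucose, 1373 CPM (1043 to 2569.5, n = 9). PGM2 passed at 5 pg against 10 ng (edgeR adjusted p = 0.0414) with a relative value of 0.12, since the test refers to the 1.76 before the median was subtracted. On the chitin side, PCM1 had a median of 324 CPM and QRI1 of 12.7 CPM at 10 ng, next to 5.41 CPM for GFA1 in the same pathway. In the H6P libraries the medians were 313 CPM for PCM1, 156 for QRI1 and 522 for GFA1.

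Over the 54 libraries with an input, the genes whose CPM ranked most like FKS1 were YLR342W-A (Spearman's rho 0.738), ARO1 (0.706) and MET5 (0.694), as a description over libraries that share input and depth. YLR342W-A starts 182 bases after FKS1 on the same strand. The closest to GSC2 were IST2 (0.654), SMF3 (0.583) and YNL195C (0.556), and FKS1 and GSC2 themselves had a rho of 0.334. RHO1 ranked most like VMA4 (0.726), GRX2 (0.720) and PRE4 (0.716), and its rho with FKS1 was -0.0035. CHS3 ranked most like HEM13 (0.678), YOR1 (0.619) and MDR1 (0.595), CHS1 like YNL058C (0.598), PEX29 (0.593) and KGD2 (0.592), and GFA1 like ZRC1 (0.780), CIT1 (0.762) and GRS1 (0.721). In each case 2517 genes detected in at least 50% of the libraries were compared, and CHS2 was left out because it was detected in only 11.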

How the data were processed

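Bulk RNA of starved spheroplasts was sequenced in 59 libraries. Untrimmed reads were mapped by the authors to R64 with STAR 2.5.2, reads with 1 place in the genome were counted per gene, and the deposited values are raw counts per gene and spike-in. HTSeq and RSEM 1.2.31 are also named in the submitters' processing notes. Of 6420 genes, 6061 were matched to the R64 annotation and 5980 had a coding length. The 5 summary lines, with 2.84% to 12.1% of the counts, and 92 ERCC spike-ins were left out of gene totals. No molecular identifiers were used, so counting limits cover counting error only, and the floor is 3 counts. Separate cultures are not stated in the labels, so p-values measure only the spread between libraries, which may be technical.

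Amounts were taken from the labels, and the 5 H6P libraries entered no comparison. Counts were compared by edgeR 4.0.16 (TMM scaling, quasi-likelihood test). A gene was tested if 20% or more of the libraries compared held 5 counts or more, and called at 0.05 after Benjamini-Hochberg adjustment. Named were all 7 genes, list genes past the threshold, up to 2 abundant genes per list and the most alike genes. The SE is the absolute fold change over the square root of F. Exact permutation tests used log2(CPM + 1) with a pseudocount of 1. Scaling, filter, DESeq2 1.42.0, a replicate block, library sets, single libraries left out and a lowess length trend were alternatives. The count test was tried on simulated data with the same spread in both groups, which does not cover the uneven spread between these inputs. The members and lists were chosen with earlier results of these data known. R 4.3.3, Python 3.11.15, scipy 1.17.1 and statsmodels 0.14.6 were used.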

Additional observations from a re-analysis of the deposited data

Results flagged for a closer look

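Within an amount, a library was singled out where its gap to the nearest other library was large for the range of the group, by Dixon's test at 95%. This held in 14 of the 42 combinations of gene and amount. The rate of 1 in 20 for chance alone assumes normally distributed values. These CPM are skewed, many libraries lack a count, and the combinations share libraries. Whether 14 is more than chance gives was therefore not tested. At 10 ng replicate 5 stood highest for FKS1 (1674 CPM) and GSC2 (85.7 CPM), next to 591 and 34.9 CPM in the nearest library. RHO1 had 2303 CPM in 5 pg replicate 7 and 772 CPM in 20 pg replicate 6. CHS3 had 358 CPM in 5 pg replicate 10, 201 CPM in 100 pg replicate 5 and 139 CPM in 1 ng replicate 9. CHS1 had 404 CPM in 10 pg replicate 8 and 248 CPM in 20 pg replicate 9. CHS2 had 20.2 CPM in 1 ng replicate 9 and 0.928 CPM, a single count, in 10 ng replicate 6. GFA1 had 114 CPM in 20 pg replicate 9, 59.4 CPM in 100 pg replicate 7 and 80.8 CPM in 1 ng replicate 9. The same library, 1 ng replicate 9, was thus the highest for CHS3, CHS2 and GFA1, and 20 pg replicate 9 for CHS1 and GFA1. At 1 ng replicate 9 was also the highest for FKS1 (2358 CPM), GSC2 (178) and CHS1 (30.8), without being singled out. It held the lowest share of spike-in counts at 1 ng (33.1%), as did replicate 5 at 10 ng (45.3%). Whether these values belong to the whole library was not tested.

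The H6P libraries belong to no comparison and held all 7 genes above the 3 counts that a count of 0 allows, except CHS2 in library 15. Their median was 1154 CPM for FKS1, 287 for GSC2, 405 for RHO1, 190.3 for CHS3, 789 for CHS1, 80.9 for CHS2 and 522 for GFA1.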

How the results depend on the processing

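The edgeR calls on members differed between settings. Between 5 pg and 10 ng, 3 passed with all libraries, 1 (FKS1) with library size only, 1 (FKS1) with a replicate block, 0 within the libraries numbered 1 to 4 and 0 within those above 4, and 2 to 3 when 1 library was left out. Between 1 ng and 10 ng, 4 passed, against 2 with the stricter filter (FKS1 and GSC2, the others not being tested), 2 in the libraries numbered 1 to 4 (FKS1 and GSC2), 0 in those above 4 and 3 to 4 with 1 library left out. For 100 pg against 1 ng, 0 passed, against 2 (GSC2 and RHO1) in the libraries numbered 1 to 4. In the test over 6 amounts 3 passed under each setting tried, with CHS3 in place of the untested CHS2 under the stricter filter. Calls of FKS1 and GSC2 in the first 2 comparisons held in all 36 fits without 1 library.

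Signs turned as follows, and no turned value that had a test passed. For 5 pg against 10 ng FKS1 was -0.86 relative to the length trend, RHO1 0.62 by DESeq2 and 0.78 with the block, CHS1 -0.66 in libraries 1 to 4 and -0.97 on the log2(CPM + 1) scale, and GFA1 -0.93 and -0.71 in the same order and -0.37 to 1.26 with 1 library left out. For 5 pg against 10 pg GSC2 was 0.023 by DESeq2 and 0.85 with the block, RHO1 -0.033 with the stricter filter and CHS1 0.084 without a filter. For 10 pg against 20 pg FKS1 was -0.060 with ERCC scaling, and in libraries 1 to 4 RHO1 was -0.49, CHS1 -0.98 and CHS2 0.55. For 20 pg against 100 pg the block gave 0.34 for FKS1, 0.33 for GSC2, 0.24 for CHS3, -1.27 for CHS1 and 1.02 for CHS2, libraries 1 to 4 gave 0.20 for GSC2 and 0.61 for CHS3, and DESeq2 gave -0.88 for CHS1. For 1 ng against 10 ng RHO1 was 0.029 and CHS1 -0.35 in libraries 1 to 4, and CHS1 was -0.084 without a filter and -0.034 to 0.37 with 1 library left out. The cause was not tested.

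The library numbers were not taken to pair the samples in the main fits. Pairing required every same-numbered pair to have deviations correlated over 0.1, which held in none of the 6 comparisons. Single pairs were over 0.1 in 0 of 9 cases at 5 pg against 10 ng (-0.084 to 0.027, 1 best with its own number). They were over 0.1 in 5 of 7 cases at 100 pg against 1 ng (median 0.169, 5 best) and in 6 of 8 at 1 ng against 10 ng (up to 0.523, 4 best). Most pairs were thus alike at 100 pg against 1 ng and at 1 ng against 10 ng. The rule does not show that those libraries are unpaired, and the main edgeR calls there ignore any pairing. Whether the libraries are paired was not tested. With few counts of CHS1, CHS2, CHS3 and GFA1, differences at these levels were often not detectable at this depth.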
